A study of Mus musculus with 312 samples.

Results

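The transcripts of the insulin-like growth factor (IGF) system were examined in single mammary basal cells, through 9 genes taken from a named list and matched by the symbol of their Entrez gene. They are 6 IGF binding protein genes (Igfbp2, Igfbp3, Igfbp4, Igfbp5, Igfbp6 and Igfbp7), the ligand gene Igf1 and the receptor genes Igf1r and Igf2r, out of 25136 genes used. All 9 were found in the count tables and all 9 passed the minimum level set for comparisons, which was 10 CPM on average in any group. CPM is the number of reads of a gene for every 1000000 reads assigned to genes in that cell.

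The cells came from mammary glands of FVB/NJ mice and all carry the label of basal epithelium, the outer and contractile layer of the duct. No treatment was given. Of 312 cells, 237 were from adult mice and 75 from pregnant mice, and the labels give no day of pregnancy. Adult titles form a set of 112 cells that carry the mark (2), here called marked, and a set of 125 cells that do not, here called unmarked. What the mark stands for is not given in the sources used here. The study sorted adult basal cells as Lin-CD29hiCD24+ but describes its mid-pregnancy cells on the same instrument as total epithelium, so the basal identity of the pregnancy cells rests on their labels and on the markers below. Neither the labels nor the titles tie a cell to an animal. Each group was therefore 1 sample, no test was possible, and a difference between stages cannot be told apart from one between animals or capture runs.

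IGF1 and IGF2 are secreted growth factors that signal through the receptor tyrosine kinase encoded by Igf1r, while the product of Igf2r takes up IGF2 for degradation. The binding proteins are secreted too, hold the ligands outside the cell, and can either limit or prolong their access to the receptor. In the mammary gland, IGF1 from the stroma acts on ductal growth, and IGFBP5 is known for its rise when the gland involutes after lactation. IGFBP7 differs from the others in its low affinity for IGFs.

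Igfbp2 and Igfbp5, which the results below turn on most, are neighbours on chromosome 1 (GRCm38). Igfbp2 spans 72824480 to 72852474 on the plus strand and Igfbp5 spans 72858065 to 72874865 on the minus strand, so their 3′ ends face each other across 5590 bases that hold 0 other annotated genes. The other members lie apart. Igfbp3 (7206086 to 7215498) and Igfbp4 (99040005 to 99052655) are on chromosome 11, Igfbp6 is on chromosome 15 (102144186 to 102149512), Igfbp7 on chromosome 5 (77349240 to 77408045), Igf1 on chromosome 10 (87858265 to 87937047), Igf1r on chromosome 7 (67952257 to 68233668) and Igf2r on chromosome 17 (12682406 to 12769706). The 250 bases before the annotated start of the neighbouring pair, from RefSeq on GRCm38.p6 and read 5′ to 3′ on the strand of the gene, are shown because the pair shares a locus and differs in its change with pregnancy. Capitals mark matches to the GC box letters GGGCGG on either strand.
Igfbp2, chr1:72824230-72824479, plus strand: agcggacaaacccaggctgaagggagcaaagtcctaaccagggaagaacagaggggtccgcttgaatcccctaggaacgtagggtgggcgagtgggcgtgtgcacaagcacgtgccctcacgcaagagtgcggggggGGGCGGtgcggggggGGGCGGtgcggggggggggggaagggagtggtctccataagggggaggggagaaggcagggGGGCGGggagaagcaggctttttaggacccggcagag
Igfbp5, chr1:72874866-72875115, minus strand: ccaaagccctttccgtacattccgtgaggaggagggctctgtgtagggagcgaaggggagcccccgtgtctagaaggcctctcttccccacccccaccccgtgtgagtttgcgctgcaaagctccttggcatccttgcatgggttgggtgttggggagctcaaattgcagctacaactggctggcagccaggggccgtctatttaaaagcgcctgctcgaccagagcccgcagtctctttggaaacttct
The Igfbp2 window held 3 GC boxes and the Igfbp5 window held 0. GGGCGG occurred in 32.7% of the same window before 32851 RefSeq start sites. G and C made up 67.2% of the Igfbp2 window and 58.8% of the Igfbp5 window, against a median of 52.4% over all windows. Neither window held TATAAA or CCAAT, which were present in 12.4% and 33.8% of all windows, with the search covering both strands. Of all 9 members, Igfbp4 and Igfbp6 held TATAAA. RefSeq lists a further start of Igfbp2, whose window (72825137 to 72825386) held 0 GC boxes. A match of letters is a description of the window and no evidence of binding.

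Cells were retained with 50000 assigned reads and 1000 genes, without mitochondrial and ribosomal protein genes. This left 81 of 112 marked adult cells (72.3%, exact Clopper-Pearson 95% interval 63.1 to 80.4%), 58 of 125 unmarked adult cells (46.4%, 37.4 to 55.5%) and 71 of 75 pregnancy cells (94.7%, 86.9 to 98.5%). Retained cells had medians of 174910, 101320.5 and 230645 assigned reads and of 3020, 2782 and 4459 genes, in that order. Mitochondrial genes took a median of 9.65%, 15.6% and 18.4% of reads. At least 6 of 11 core basal genes reached 100 CPM in 76 marked, 51 unmarked and 70 pregnancy cells, so the basal label held for most cells of each group. At least 3 luminal genes were present in 4, 6 and 1 cells, at least 3 fibroblast genes in 0, 3 and 3 cells, and at least 3 proliferation genes in 2, 2 and 13 cells. Intervals below cover counting error only, since read pairs carry no molecular identifiers and cells of a group are not replicates of a condition.

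Igfbp5 was the most abundant of the 9 transcripts by CPM and by length-scaled level in every group, and Igfbp2 was the member called as different in pregnancy against both adult sets, with higher levels. Mean Igfbp2 was 96.4 CPM in marked adult cells, 162 CPM in unmarked adult cells and 794 CPM in pregnancy cells. Igfbp3 had a smaller difference in the same direction. Igfbp7 had a lower mean in pregnancy than in either adult set, but against the unmarked set the direction turned with a stricter cell filter (below). Igfbp4, Igfbp6, Igf1 and Igf2r had means that rested on few cells in at least 1 group. The receptor genes Igf1r and Igf2r had means in pregnancy close to those of the marked adult set.

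**Figure D1:**
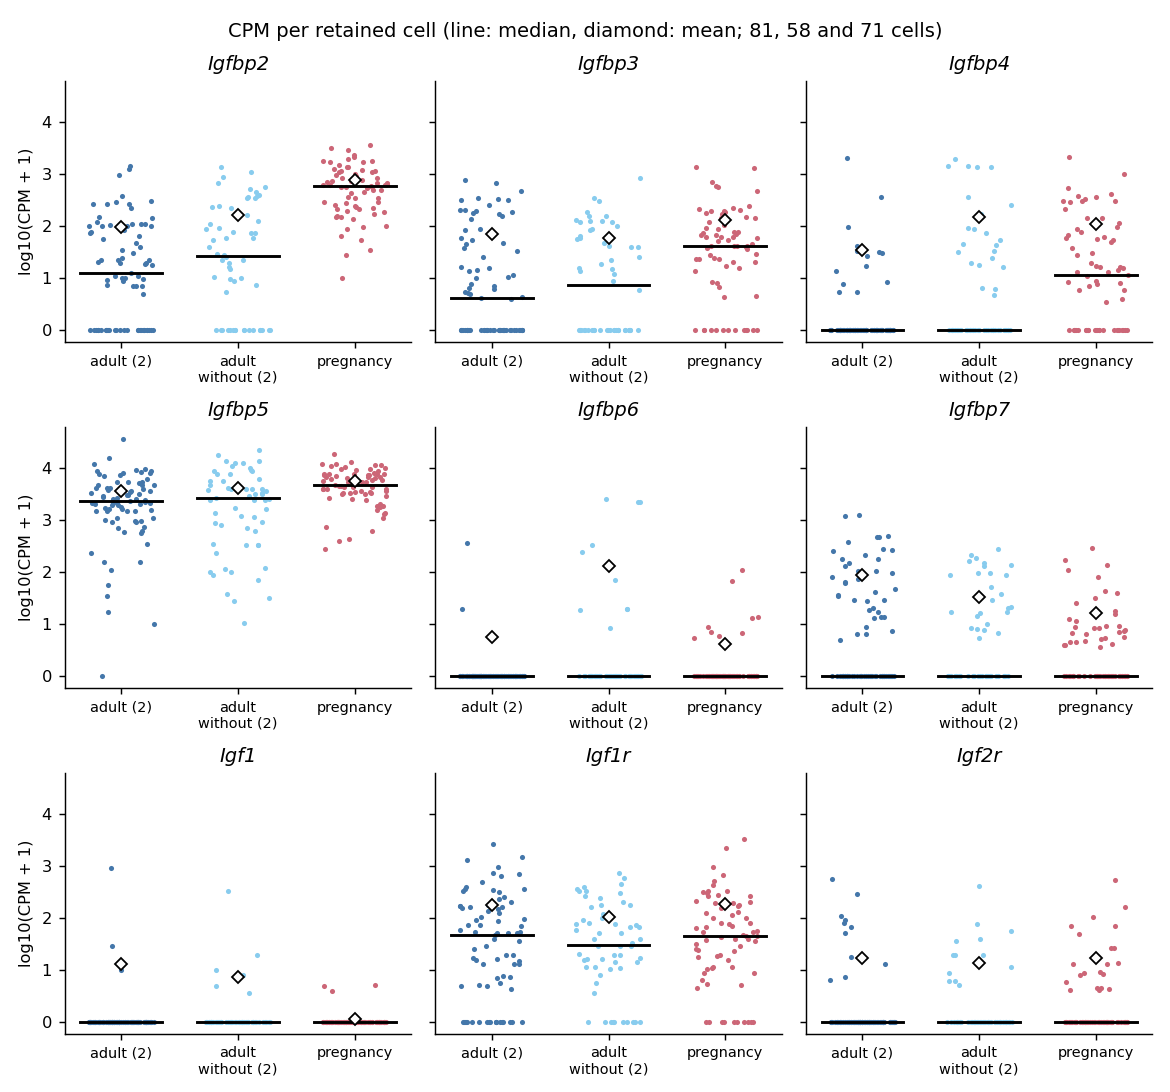
CPM of the 9 genes in each retained cell, as log10(CPM + 1), in adult cells marked (2), adult cells without the mark and pregnancy cells (81, 58 and 71 cells). Each point is a cell, the line is the median and the diamond the mean; pregnancy cells all lie above 0 for Igfbp2, whereas 28 marked and 17 unmarked adult cells lie at 0.

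The length-scaled level, in RPKM (CPM for each kilobase of exon), allows the binding proteins to be set against each other. Mean Igfbp5 was 633 RPKM in marked adult, 721 RPKM in unmarked adult and 952 RPKM in pregnancy cells. It made up 76.8%, 67.4% and 57.0% of the summed mean RPKM of the 6 binding proteins, in that order. Igfbp2 was next in each group, with mean levels of 72.5, 122 and 597 RPKM and shares of 8.80%, 11.4% and 35.7%. The lower share of Igfbp5 in pregnancy thus stood beside a higher level of it. Below Igfbp2, the order differed between groups. In marked adult cells Igfbp7 came next with 70.9 RPKM, close to Igfbp2. In unmarked adult cells Igfbp6 (102 RPKM) and Igfbp4 (74.0 RPKM) followed, whose means rested on few cells (below). In pregnancy cells Igfbp4 (54.1 RPKM) and Igfbp3 (52.5 RPKM) were nearly equal, and Igfbp7 (12.4 RPKM) and Igfbp6 (2.49 RPKM) were lowest.

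Within single cells, Igfbp5 had the highest RPKM of the 6 in 64 of 81 marked, 42 of 58 unmarked and 51 of 71 pregnancy cells. In pregnancy, Igfbp2 had the highest RPKM in each of the other 20 cells, against 10 marked and 8 unmarked adult cells. Igfbp7 led in 4 marked, 3 unmarked and 0 pregnancy cells, and Igfbp6 led in 4 unmarked cells only. The summed CPM of the 6 genes ranged from 55.7 to 36909 in marked adult cells (median 2695), from 30.8 to 21905 in unmarked adult cells (median 3134) and from 491 to 19584 in pregnancy cells (median 6028). The 3 ranges overlap, and the lowest pregnancy cell lay above the lowest adult cells.

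**Figure D2:**
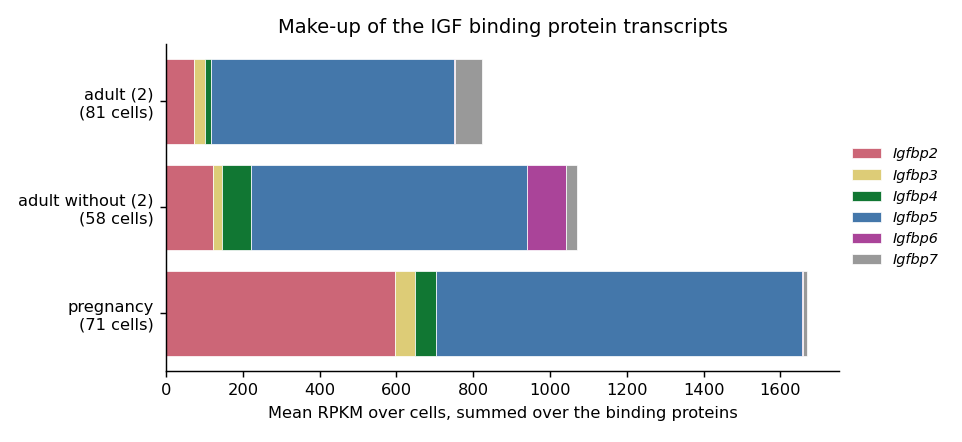
Mean RPKM of each IGF binding protein gene over the retained cells of a group, stacked to the sum over the 6 genes (horizontal axis, linear from 0). Igfbp5 is the longest segment in each bar, and the Igfbp2 segment is 597 RPKM in pregnancy against 72.5 and 122 RPKM in the adult sets.

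To compare how many cells held each transcript at equal depth, each cell was thinned at random to 50000 assigned reads, at which 1 read equals 20 CPM. After thinning, Igfbp5 was found in 78 of 81 marked adult cells (96.3%, 89.6 to 99.2%), 56 of 58 unmarked adult cells (96.6%, 88.1 to 99.6%) and 71 of 71 pregnancy cells. Igfbp2 was found in 40 marked (49.4%, 38.1 to 60.7%), 36 unmarked (62.1%, 48.4 to 74.5%) and 70 pregnancy cells (98.6%, from 92.4%). Averaged over all possible draws, the expected shares of Igfbp2 were 51.4%, 61.1% and 98.5%. Igfbp3 was found in 32.1% (22.2 to 43.4%), 46.6% (33.3 to 60.1%) and 69.0% (56.9 to 79.5%) of cells. The number of all genes found in more pregnancy than adult cells was not counted. No gap between intervals is therefore read as particular to a member. Igf1r was found in 63.0% (51.5 to 73.4%), 74.1% (61.0 to 84.7%) and 66.2% (54.0 to 77.0%), with intervals that overlap throughout.

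The remaining members were found in fewer than 50% of cells of any group. Igfbp4 was found in 13.6% (6.98 to 23.0%), 34.5% (22.5 to 48.1%) and 45.1% (33.2 to 57.3%) of cells. Igfbp7 had shares of 38.3%, 34.5% and 26.8% and Igf2r of 9.88%, 15.5% and 16.9%, and the counting intervals of the groups overlapped for each gene. Igfbp6 was found in 2.47%, 12.1% and 5.63% of cells and Igf1 in 2.47%, 5.17% and 1.41%. The members found in at least 50% of cells in each group were thus 2, Igfbp5 and Igf1r, and Igfbp2 joined them by its expected share over draws.

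**Figure D3:**
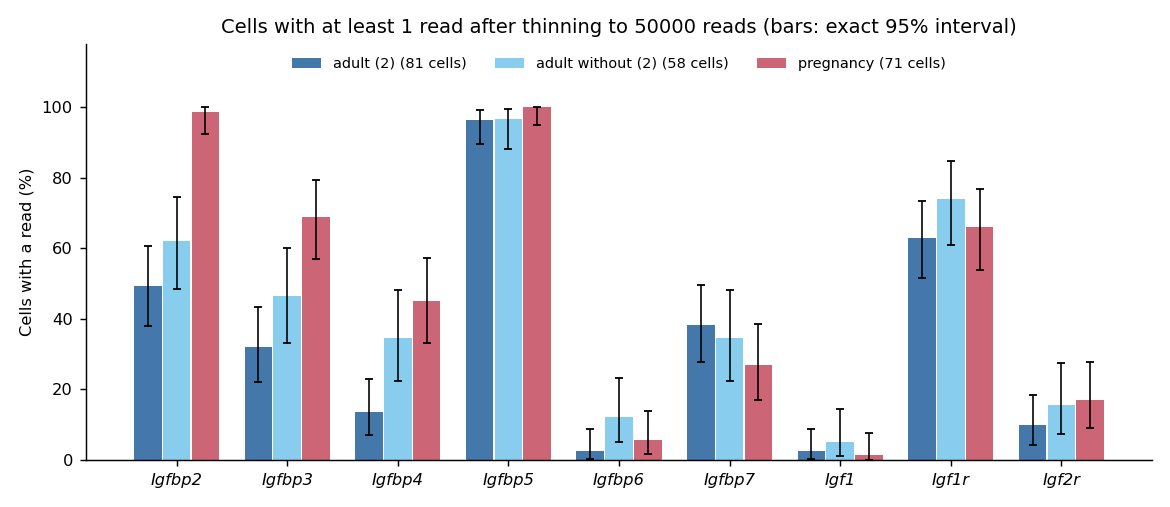
Share of cells (%) with at least 1 read of each gene after each cell was thinned to 50000 assigned reads, in the 3 groups, with exact 95% intervals for counting error. The Igfbp2 bars stand at 49.4%, 62.1% and 98.6%, and the Igfbp5 bars are above 96% in every group.

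Cells also differed in how many binding protein transcripts they held together. After thinning, at least 4 of the 6 were found in 11 marked (13.6%, 6.98 to 23.0%), 17 unmarked (29.3%, 18.1 to 42.7%) and 33 pregnancy cells (46.5%, 34.5 to 58.7%). The median was 2 of 6 in the marked set and 3 of 6 in both other groups. No pregnancy cell held fewer than 2, whereas adult cells with 1 occurred in both sets. Igfbp2 alone was found in 49.4% of marked, 62.1% of unmarked and 98.6% of pregnancy cells. No count over other genes at this depth stands beside these numbers, so they are not read as particular to the binding proteins.

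Differences in level were expressed as the log2 ratio of mean CPM with 10 CPM added to each mean, cells weighted equally, and a ratio of at least 1 or at most -1 (a 2-fold difference) was called. The addition understates differences of low genes. Of 9882 genes that averaged 10 CPM or more in any group, 16.9% were called higher and 14.3% lower in pregnancy than in marked adult cells, and 19.9% and 15.5% against unmarked adult cells. The adult sets differed from each other about as often, with 15.8% of genes called higher and 17.4% lower in the unmarked set. Among the members 3 of 9 differed between the adult sets, Igfbp4, Igfbp6 and Igfbp7, which is the background share of 33.3%. Requiring the same direction against both adult sets left 9.26% of genes higher and 4.44% lower in pregnancy. By this rule 1 of 9 members, Igfbp2, was higher and 0 of 9 were lower. Against marked adult cells alone, Igfbp2 and Igfbp4 were called higher and Igfbp7 and Igf1 lower. Igf1 averaged 10 CPM or more in the marked set only, through 1 cell, and Igfbp6 in the unmarked set only, so nothing is read from the calls of these genes. Against unmarked adult cells alone, Igfbp2 and Igfbp3 were called higher and Igfbp6 lower. Both ratios share the pregnancy cells. The median log2 ratio of the members was 0.04 and 0.22 against the marked and unmarked sets, beside 0.04 and 0.09 over all genes, so the members as a list stood near the other genes.

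**Figure D4:**
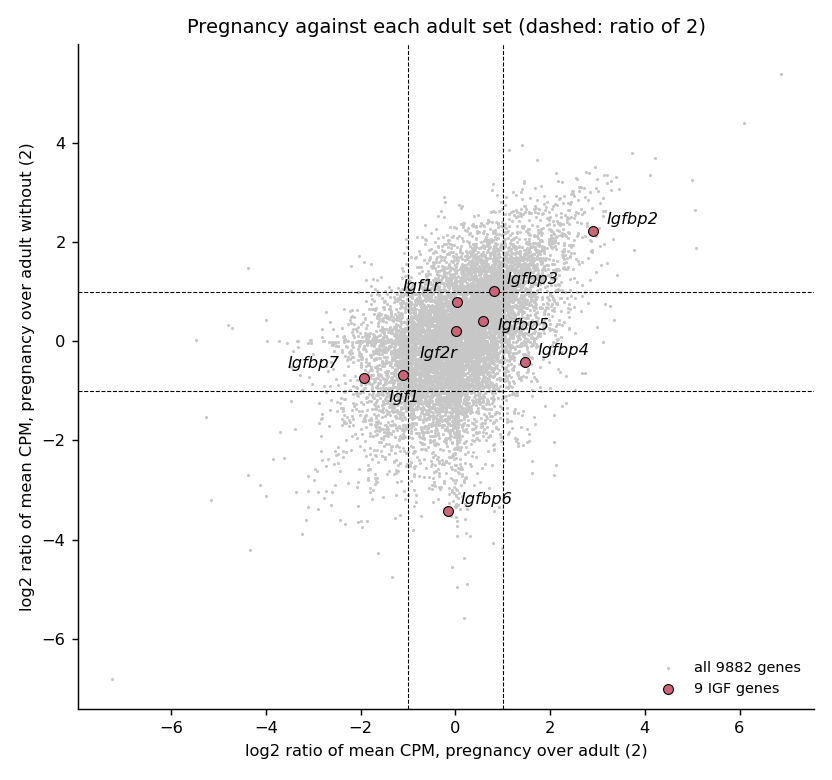
Mean CPM in pregnancy relative to marked adult cells (horizontal, log2) and relative to unmarked adult cells (vertical, log2) for 9882 genes (grey) and the 9 IGF genes (red), with dashed lines at 1 and -1. Igfbp2 lies beyond 1 on both axes (2.92 and 2.22), and Igfbp6 lies far below -1 on the vertical axis only (-3.42). Igfbp6 averaged 10 CPM or more in the unmarked set only, and nothing is read from its call.

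Igfbp2, whose product binds IGF1 and IGF2 and also carries an integrin-binding sequence, had a median of 11.4 CPM in marked adult cells, with a lowest value of 0 and a highest of 1440.4 CPM. In unmarked adult cells the median was 26.0 CPM and the values ran from 0 to 1391 CPM. In pregnancy cells the median was 591 CPM, the lowest cell had 9.30 CPM and the highest 3615 CPM. The groups overlap, since 3 marked and 4 unmarked adult cells exceeded the pregnancy median, yet 28 marked and 17 unmarked cells had 0 reads and 0 pregnancy cells did. The log2 ratio was 2.92 against marked and 2.22 against unmarked adult cells, above those of 99.6% and 97.6% of the genes compared. No single cell carried it, as cell 19, the highest in pregnancy, contributed 6.41% to its group and the ratios without the highest cell of each group were 3.09 and 2.34.

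Other measures moved with the groups beside Igfbp2. The summed fibroblast genes had a median of 0 CPM (0 to 3262) in marked adult, 27.7 CPM (0 to 38176) in unmarked adult and 561 CPM (55.2 to 5782) in pregnancy cells. The fibroblast genes Lum and Dpt were at 0 in every marked cell. In the 75, 48 and 67 cells with at least 6 core basal genes and fewer than 3 genes of any fibroblast, endothelial, pericyte, immune or adipocyte list, mean Igfbp2 was 103, 176 and 801 CPM and its ratios were 2.84 and 2.12. These cells still differed in fibroblast genes, whose summed medians were 0, 21.7 and 537 CPM, and at least 1 of the 8 reached 100 CPM in 10, 11 and 62 of them. Within them, Igfbp2 correlated with the fibroblast sum at rho of -0.01, 0.36 and 0.13. The number of genes per cell, the mitochondrial share and the proliferation genes were also higher in pregnancy. The part of any of these measures in the result was not tested. Across cells of 1 group, Igfbp2 correlated with the number of genes detected at Spearman's rho of 0.35 (81 marked cells), 0.51 (58 unmarked cells) and 0.15 (71 pregnancy cells). Igfbp2 and Igfbp3 belong to a list of basal genes that the study used, so their presence in basal cells is no independent observation.

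Igfbp5, the most conserved of the binding proteins and one that attaches to extracellular matrix, differed less. Its median was 2338 CPM in marked adult cells (0 to 36823), 2630 CPM in unmarked adult cells (9.66 to 21874) and 4779.9 CPM in pregnancy cells (282 to 18827). The highest cells were adult, and the lowest were adult too. The lower quartile was 1079.7 CPM, 411 CPM and 3171 CPM in that order, so the ratio of pregnancy to adult was larger there than at the median. The log2 ratios of the means, 0.59 and 0.40, did not reach the size called. Those of the mean of log2 values, which weights low cells more, were 1.21 and 1.46. Marked adult cell 24 held 12.3% of the Igfbp5 reads scaled by depth in its set, with 8 core basal genes at 100 CPM.

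**Figure D5:**
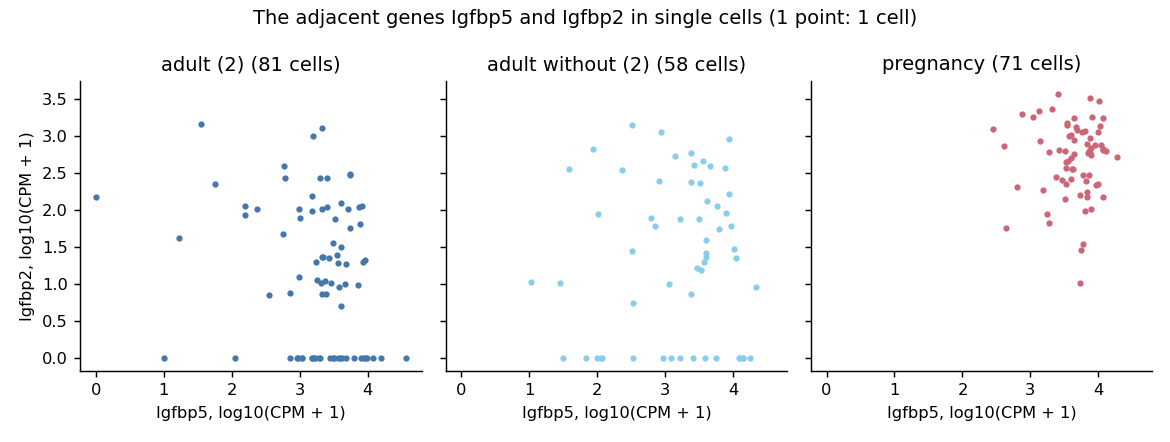
Igfbp2 against Igfbp5 in single cells, both as log10(CPM + 1), with 1 panel for each group and 1 point for each cell. Adult points spread down to 0 on the Igfbp2 axis across most Igfbp5 levels, and the pregnancy points gather at high values of both genes.

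Correlation between the neighbouring genes from cell to cell was weak. Spearman's rho between Igfbp2 and Igfbp5 was -0.19 in 81 marked, -0.03 in 58 unmarked and 0.02 in 71 pregnancy cells. After thinning, Igfbp5 without Igfbp2 was found in 40 marked, 20 unmarked and 1 pregnancy cells, and Igfbp2 without Igfbp5 in 2, 0 and 0 cells. Points of a group share depth and library preparation, and these values are descriptions. 

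Igfbp3, which encodes the main carrier of IGFs in blood, had a median of 3.13 CPM in marked adult cells (0 to 788), 6.44 CPM in unmarked adult cells (0 to 853) and 41.0 CPM in pregnancy cells (0 to 1379). The ranges overlap, and 22 marked and 18 unmarked adult cells exceeded the pregnancy median. The means were 68.8, 58.3 and 128 CPM, and the log2 ratios were 0.81 and 1.02. The call against the unmarked set thus sat at the limit. In pregnancy 48 of 71 cells held Igfbp2 and Igfbp3 together after thinning, against 11 of 81 marked and 21 of 58 unmarked cells. Since 70 pregnancy cells held Igfbp2, the count there mostly restates the 49 cells with Igfbp3.

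Igfbp4, which encodes an inhibitory binding protein that the protease PAPP-A cleaves, had a median of 0 CPM in marked adult cells (0 to 2061), 0 CPM in unmarked adult cells (0 to 1932) and 10.6 CPM in pregnancy cells (0 to 2140.04). Its means were 33.8, 153 and 112 CPM. Marked adult cell 71, a cell with 9 core basal genes, held 75.4% of its set's sum, and without that cell the marked mean was 8.42 CPM. The log2 ratio of pregnancy was 1.48 over marked and -0.42 over unmarked adult cells, and that of the unmarked over the marked set was 1.90. The unmarked set was itself uneven, with a mean of 230.4 CPM in the 38 cells of the lower title numbers and 6.32 CPM in the 20 cells of the higher numbers. Over the cells of the higher numbers alone, the ratio of unmarked over marked was -1.42, the opposite direction. That ratio sets 6.32 CPM against the marked mean of 33.8 CPM, which includes cell 71 and was 8.42 CPM without it. Igfbp4 correlated with the summed fibroblast genes at rho of -0.05, 0.45 and 0.15 in the 3 groups, and the part of such cells was not tested.

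Igfbp6, whose product prefers IGF2, was rare and concentrated. Reads were present in 2 of 81 marked, 10 of 58 unmarked and 9 of 71 pregnancy cells before thinning, and the medians were 0. The means of 4.67, 132 and 3.21 CPM gave a log2 ratio of -0.15 over marked and of -3.42 over unmarked adult cells. The unmarked mean rested mainly on 3 cells. Cell 151 (2557 CPM) and cell 157 (2194 CPM) each carried 6 of 8 fibroblast genes, and cell 157 carried 0 core basal genes. Cell 221 (2184 CPM) carried 0 fibroblast and 9 core basal genes. In cells with the basal markers and without other lists, the unmarked mean was 55.2 CPM and the ratio to pregnancy was -2.47, but cell 221 held 82.4% of that sum. Without the highest such cell of each group the unmarked mean was 9.92 CPM and the ratio -0.89, short of the size called. In the marked set, cell 64 held 95.1% of the sum, with 143 reads.

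Igfbp7, whose product is also found in vessel walls, had a lower mean in pregnancy than in either adult set. Its means were 86.0, 32.1 and 15.1 CPM, its medians 0, and its highest values 1256, 276 and 284 CPM. The log2 ratio was -1.94 over marked and -0.75 over unmarked adult cells. With at least 100000 reads and 1500 genes, the ratio over unmarked adult cells was 0.32, the opposite direction. Without thinning, and thus at unequal depth, reads were present in 40 of 81, 26 of 58 and 33 of 71 cells. After thinning the shares were 38.3%, 34.5% and 26.8%. At least 100 CPM was reached in 16, 7 and 4 cells. The 3 highest marked cells were cell 104, with 3 pericyte and 5 core basal genes, cell 28, with 7 core basal genes, and cell 100, with 4 core basal genes. Igfbp7 correlated with the summed endothelial genes at rho of 0.11, 0.54 and 0.11. In cells with the basal markers and without other lists, the means were 69.5, 19.0 and 15.9 CPM and the ratios -1.62 and -0.17. Igfbp7 overlaps the gene Polr2b in the annotation, and the use of strand in the counting is not given in the sources used here.

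Igf1, the ligand, had few reads in any group. It had 72 reads in the marked set (Poisson 95% interval 56.3 to 90.7), 34 in the unmarked set (23.5 to 47.5) and 3 in pregnancy (0.619 to 8.77). Of the 72 reads, 66 were in marked cell 91, a cell with 8 core basal genes and 52.7% mitochondrial reads, and 28 of the 34 were in unmarked cell 155, which carried 4 luminal, 4 fibroblast and 10 core basal genes. For every 1000000 assigned reads there were 0.183 in pregnancy against 4.79 and 4.84, a ratio of 0.0382 (0.00769 to 0.116) and 0.0378 (0.00744 to 0.120) by counting error. These intervals treat each read as independent, although most adult reads lay in 1 cell of each set, so they are too narrow. Without the highest cell of each group the log2 ratios over the adult sets were -0.05 and -0.09, in place of -1.10 and -0.68. The second ligand gene, Igf2, had 0 reads in marked, 21 in unmarked and 3 in pregnancy cells. Unmarked cell 169, with 2 core basal and 2 endothelial genes, held 95.4% of the Igf2 sum of its set. After thinning Igf2 was found in 0 of 81 marked cells, and 3 counts would correspond to 3.70%.

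Igf1r, the signalling receptor, had a median of 46.1 CPM in marked adult cells (0 to 2659), 29.8 CPM in unmarked adult cells (0 to 715) and 43.9 CPM in pregnancy cells (0 to 3271). The means were 179.7, 102 and 185 CPM, and the log2 ratios of pregnancy were 0.04 and 0.79, neither of which reached the size called. The highest pregnancy cell, cell 61, held 25.0% of the sum. As a length-scaled level, Igf1r was at 15.0, 8.54 and 15.4 RPKM, far below Igfbp5. Igf2r, the scavenger receptor, had medians of 0 CPM and means of 15.7, 12.3 and 15.9 CPM, or 1.76, 1.38 and 1.78 RPKM. Single cells held 43.9%, 57.1% and 47.8% of its sums, and its log2 ratios were 0.01 and 0.22. Igf2r overlaps the counted gene Airn, at 11.6, 3.52 and 8.44 CPM on average.

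Genes whose CPM varied most like each abundant member were ranked by the smallest of the 3 Spearman correlations within groups, among 2367 genes with at least 50 CPM on average in each group. For Igfbp2 they were Col4a1 (smallest rho 0.32), a chain of basement membrane collagen, Ddx50 (0.32) and Washc2 (0.26). For Igfbp3 they were Bmpr1a (0.26), Mgp (0.26) and Itga6 (0.24). For Igfbp5 they were Mmp2 (0.27), Mylk (0.23), the myosin light chain kinase of contractile cells, and Ddx3x (0.21). For Igf1r they were Fryl (0.21), Ylpm1 (0.21) and Ppp2r3a (0.21). The median smallest rho over all genes was between -0.03 and -0.07, and correlations of this size in sparse counts are given as a description only.

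The rest of the pathway was read from a list of 39 genes, of which 25 reached the minimum level. By the rule of both adult sets, 4 of 25 were higher in pregnancy, beside 9.26% of all genes, and 0 of 25 were lower, beside 4.44%. One of the 4, Pik3r2, reached the minimum in pregnancy only, so its call was set by the choice of genes compared. Htra1, a secreted serine protease that cleaves IGF binding proteins, had means of 55.0, 53.1 and 372 CPM and log2 ratios of 2.56 and 2.60. It was found after thinning in 37.0% (26.6 to 48.5%), 43.1% (30.2 to 56.8%) and 83.1% (72.3 to 91.0%) of cells. Pik3ca, a catalytic subunit of PI3-kinase, had means of 70.7, 68.6 and 210.2 CPM and ratios of 1.45 and 1.49, with 32.3% of the pregnancy sum in cell 36. Pik3r2, a regulatory subunit, had means of 2.08, 2.08 and 62.5 CPM, with 48.5% of the pregnancy sum in cell 1. With the mean of log2 values, Htra1 was still called and Pik3ca, Pik3r2 and Grb14 were not. Grb14, an adaptor that inhibits receptor signalling, had means of 2.44, 12.8 and 54.5 CPM and was found in 2.47%, 13.8% and 22.5% of cells.

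Among the pathway genes named in any case, the insulin receptor substrates Irs1 and Irs2 had higher means in pregnancy and were called against the unmarked set only. Irs1 was at 51.3, 18.9 and 101 CPM, with log2 ratios of 0.86 and 1.95, and pregnancy cell 40 held 44.7% of its sum. Without the highest cell of each group the Irs1 means were 37.9, 13.4 and 56.9 CPM and the ratios 0.48 and 1.51. Irs2 was at 86.3, 41.8 and 162 CPM, with ratios of 0.84 and 1.73 (1.06 and 2.30 without the highest cells), and was found in 39.5% (28.8 to 51.0%), 22.4% (12.5 to 35.3%) and 62.0% (49.7 to 73.2%) of cells. Insr, the insulin receptor, was at 22.7, 64.0 and 41.3 CPM, and 71.6% of the unmarked sum lay in cell 196. The protease gene Pappa, named after its values were seen because its product cleaves IGFBP4, was at 42.3, 186 and 246 CPM, with ratios of 2.29 over marked and 0.38 over unmarked adult cells. Unmarked cell 138 held 50.2% of its set's sum, and without the highest cell of each group the means were 33.2, 94.1 and 203 CPM and the ratios 2.30 and 1.04, beyond the limit against both sets. Pappa was found after thinning in 28.4% (18.9 to 39.5%), 44.8% (31.7 to 58.5%) and 85.9% (75.6 to 93.0%) of cells. The median log2 ratio of the 25 pathway genes was 0.28 and 0.38 against the marked and unmarked sets.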

How the data were processed

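Read pairs of single cells from the Fluidigm C1, with Nextera XT libraries, had been aligned to mm10 with Subread 1.5.0 and assigned to Entrez genes with featureCounts by the authors. The values used are the counts deposited by the authors, whole read pairs for each gene and cell without normalization, with exon lengths beside them. No 2 cells had identical counts. Symbols were matched through RefSeq (GRCm38.p6) for 25275 of 27179 IDs, and the other 1904 IDs held 1.66% of reads. After 15 mitochondrial and 124 ribosomal protein genes were left out, 25136 genes remained. No doublet caller was run. CPM, RPKM, thinning, log2 ratios and intervals were computed with Python 3.11.15, numpy 2.4.6, scipy 1.17.1 and pandas 2.3.3, and alternative scalings with edgeR 4.0.16 and DESeq2 1.42.0. The steps were tested on simulated data.

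Members, lists and alternatives were chosen with earlier results of these data known. The text names all members, pathway genes of at least 10 CPM called in the same direction against both adult sets, Igf2, Insr, Irs1 and Irs2, and the 3 genes most like each member of at least 50 CPM in each group. A marker counted at 100 CPM. Alternatives covered the pseudocount, the scaling, the averaging, the cell filter, marker-defined cells, the highest cell, parts of the unmarked set by title number, the minimum level and the thinning.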

Additional observations from a re-analysis of the deposited data

Results flagged for a closer look

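Cells below the limits of 50000 assigned reads and 1000 genes entered no comparison, and Igfbp5 reads were present in them. The 31 marked adult cells left out held 1274 Igfbp5 reads, or 2815 for every 1000000 assigned reads (Poisson 95% interval 2663 to 2974), with reads in 31 of 31 cells. The 67 unmarked adult cells left out held 1868 reads, or 2597 on that scale (2481 to 2718), with reads in 59 cells. The 4 pregnancy cells left out held 329 reads, or 3514 (3145 to 3915), with reads in 4 cells. The retained cells, with reads summed over cells, were at 3345, 3926 and 5395 on that scale, in the same order. These data have no control samples.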

How the results depend on the processing

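Igfbp2 kept its direction in pregnancy in 12 of 12 alternatives, with log2 ratios from 2.19 to 3.81 over marked and from 1.77 to 3.22 over unmarked adult cells. The count of members called higher in pregnancy was 2 (Igfbp2 and Igfbp3) with TMMwsp scaling, with poscounts scaling and with at least 100000 reads and 1500 genes, 3 (with Igfbp5) with the mean of log2 values, and 2 (Igfbp2 and Igfbp4) with the higher title numbers of the unmarked set. The counts over all genes in these settings are given in the next paragraph. The count called lower was 2 (Igfbp7 and Igf1) with a pseudocount of 1 CPM and 1 (Igfbp7) with the higher title numbers. The Igfbp7 ratio over unmarked adult cells turned to 0.32 with at least 100000 reads and 1500 genes. Igf1 and Adam12 averaged 10 CPM or more in the marked set only, Igfbp6 and Igf2bp3 in the unmarked set only and Pik3r2 in pregnancy only. Nothing is read from the calls of these genes in this paragraph. Members that differed between the adult sets numbered 3 (33.3% of all genes did), but 1 (Igfbp6) with a pseudocount of 100 CPM (2.56% of all genes), 0 with the mean of log2 values (1.44%) and 5 with the higher title numbers (43.2%), where Igfbp4 turned to -1.42. Pathway genes called higher numbered 1 (Htra1) with a pseudocount of 100 CPM, 4 with the mean of log2 values but of other identity (Pappa, Htra1, Irs2 and Pik3r1), 5 (Pappa added) with 100000 reads, 6 (Irs2 and Akt2 added) with poscounts scaling, 6 (Pappa and Irs2 added) without the highest cell and 5 (Htra1, Pik3ca, Pik3r2, Pappa and Pik3cb) with the higher title numbers, and those called lower 2 (Adam12 and Igf2bp3) with 1 CPM and 1 (Akt1) in marker-defined basal cells. Members found in at least 50% of cells of each group numbered 1 with thinning to 20000 reads, 4 without thinning, 1 at 100 CPM and 3 by the expected share over draws, an alternative added after seeing the data, as was leaving out the highest marker-defined cell of Igfbp6. The cause of these moves was not tested.

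TMMwsp and poscounts scaling moved the median log2 ratio of all genes to 0.29 and 0.37 over marked and to 0.31 and 0.23 over unmarked adult cells, so Igfbp3 passed the limit together with a shift of all genes. Scaling to all reads gave -0.11 and 0.01. The genes called higher and lower against both sets numbered 915 and 439, 1392 and 977 with 1 CPM, 67 and 40 with 100 CPM, 552 and 32 with the mean of log2 values, 1390 and 295 with TMMwsp scaling, 1397 and 297 with poscounts scaling, 635 and 467 with scaling to all reads, 789 and 233 without the highest cell, and 458 and 309 among 5197 genes when 50 CPM was required. The counts were 1019 and 388 with at least 100000 reads and 1500 genes, and 1155 and 374 with the higher title numbers. No count over all genes is set here beside the Akt1 call in marker-defined basal cells, so nothing is read from that call. No paired analysis was possible because the numbers in the titles name single cells and no result comes from a test. Depth limits the rare members, since 1 read after thinning equals 20 CPM.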
